A study of Homo sapiens with 34 samples.

Results

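The RBPJ sites that exist in MB157 cells without induced SOX2 were examined for the arrival of HA-tagged SOX2. MB157 is a NOTCH-driven triple-negative breast cancer line. The cells carried a doxycycline-inducible vector that encoded HA-SOX2 (iSOX2) or was empty (iEV), and both kinds received 1 µg/ml doxycycline for 72 h. A site was a summit of the MB157 iEV RBPJ peaks on chromosomes 1 to 22 and X, and it was called visited when an HA summit of MB157 iSOX2 lay less than 500 bp away. There were 25243 such RBPJ sites, of which 11568 were visited and 13675 were not. Chromatin immunoprecipitation and sequencing (ChIP-seq) gave 34 libraries in the series, and the 8 deposited peak lists came from 22 immunoprecipitations with 12 inputs as controls. Each list pooled 3 libraries, apart from HA in MB157 iEV, a control with 1 library. MB157R cells, derived from MB157 by long culture with a γ-secretase inhibitor (GSI) and resistant to it, served only as a readout. They carried the empty vector (iEV) or a vector encoding NOTCH1 without its extracellular domain (iN1-ICD), and they were induced in the same way.

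Because peaks had been called on pooled libraries, no spread between replicates could be computed. The 95% intervals of shares are exact Clopper-Pearson intervals, those of differences are Newcombe intervals, and both cover counting error over sites only. The iSOX2 and iEV cells are separate populations, so that a visited site had RBPJ called in iEV and HA in iSOX2, and was not followed over time. A weaker occupancy and a smaller number of occupied cells cannot be told apart. Fold is the enrichment over input at a peak's summit as deposited, and positions are in hg38.

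RBPJ binds DNA with or without the intracellular part of a NOTCH receptor. With it, RBPJ recruits coactivators such as MAML1 and switches on genes including the HES and HEY repressors, and without it RBPJ can hold corepressors at the same sites. SOX2 is a transcription factor of stem and progenitor cells with an HMG box, a domain that binds the minor groove of DNA at AT-rich words.

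Sequence around the RBPJ summit is shown for 7 visited sites and 5 unvisited sites of genes described below, since the words they hold return in the results. The windows are hg38 plus strand, 121 bases long and centred on the RBPJ summit. Capitals mark the RBPJ core word TGGGAA, its longer form GTGGGAA, which contains the core, and any of 3 words bound by SOX factors, each on either strand. The first SOX word is AACAAT, the second is a SOX and TCF family word, AACAAAG, and the other one is written ACAATGG and can overlap the first. On the other strand the core reads TTCCCA. In windows of this length around all 25243 sites, TGGGAA was found in 33.0%, GTGGGAA in 13.0% and any SOX word in 7.12%. The visited windows are:
SPRY4 promoter (chr5:142324981-142325101): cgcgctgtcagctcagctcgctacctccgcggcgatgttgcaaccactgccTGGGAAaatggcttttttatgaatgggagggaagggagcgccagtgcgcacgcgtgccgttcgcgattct
CCDC88C intron (chr14:91383638-91383758): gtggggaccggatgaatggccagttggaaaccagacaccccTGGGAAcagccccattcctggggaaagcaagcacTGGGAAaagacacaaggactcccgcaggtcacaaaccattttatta
IER5 downstream (chr1:181117773-181117893): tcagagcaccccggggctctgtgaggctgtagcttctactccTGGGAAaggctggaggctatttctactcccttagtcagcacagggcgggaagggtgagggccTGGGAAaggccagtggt
HES1 upstream (chr3:194134854-194134974): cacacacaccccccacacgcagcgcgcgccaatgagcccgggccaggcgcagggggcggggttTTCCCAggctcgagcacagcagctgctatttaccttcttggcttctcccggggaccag
LMCD1 upstream (chr3:8499221-8499341): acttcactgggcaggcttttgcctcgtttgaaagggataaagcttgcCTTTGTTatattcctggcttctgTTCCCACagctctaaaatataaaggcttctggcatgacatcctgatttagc
COL18A1 upstream (chr21:45378248-45378368): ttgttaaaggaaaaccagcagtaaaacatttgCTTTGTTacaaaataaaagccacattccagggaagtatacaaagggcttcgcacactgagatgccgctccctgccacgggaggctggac
NRARP upstream, near site (chr9:137305152-137305272): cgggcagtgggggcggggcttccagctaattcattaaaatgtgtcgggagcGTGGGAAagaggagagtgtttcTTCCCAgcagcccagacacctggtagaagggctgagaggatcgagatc
The unvisited windows are:
NRARP upstream, far site (chr9:137311565-137311685): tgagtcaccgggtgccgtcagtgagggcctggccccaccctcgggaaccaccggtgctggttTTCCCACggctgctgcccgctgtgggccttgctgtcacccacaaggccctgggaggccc
RHOV downstream (chr15:40871937-40872057): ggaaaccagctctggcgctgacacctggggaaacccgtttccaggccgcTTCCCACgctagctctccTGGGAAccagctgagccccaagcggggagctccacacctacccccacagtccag
NOTCH1 intron (chr9:136544542-136544662): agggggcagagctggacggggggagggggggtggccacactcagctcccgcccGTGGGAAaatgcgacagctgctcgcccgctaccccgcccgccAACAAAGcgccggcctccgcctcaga
HES4 promoter (chr1:1000093-1000213): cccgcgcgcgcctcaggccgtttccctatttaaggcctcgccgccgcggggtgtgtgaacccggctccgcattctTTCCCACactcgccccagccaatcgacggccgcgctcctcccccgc
HEY2 promoter (chr6:125749333-125749453): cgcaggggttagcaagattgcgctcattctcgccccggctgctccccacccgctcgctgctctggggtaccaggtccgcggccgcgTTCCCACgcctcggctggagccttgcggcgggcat
All 5 unvisited windows hold GTGGGAA, and so do 2 of the 7 visited ones, those of LMCD1 and NRARP. A SOX word is present at LMCD1 and COL18A1, and also at the unvisited NOTCH1 site. These windows were picked with their values known, those of LMCD1 and COL18A1 for a high HA fold. Their counts do not stand for the shares over all sites.

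Visited sites were frequent and the HA summit lay close to the RBPJ summit. The share visited was 45.8% of the 25243 sites (45.2 to 46.4). The median distance at visited sites was 120 bp (quartiles 52 and 239), and 2749 sites (10.9%) had an HA summit less than 50 bp away. Nearly every visited site, 11512 of 11568, had 1 HA summit in range. The distance to HA-SOX2 varied widely among sites without a visit. Their median distance to an HA summit was 4825 bp, with 2510 at 500 to under 1000 bp and 6730 (49.2%) at least 5 kb away. Of all unvisited sites, 1949 (14.3%) were overlapped by an HA peak whose summit lay farther off. The 382 sites at 450 to under 500 bp had a median RBPJ fold of 4.94 and a nearest HA fold of 4.63, against 4.90 and 4.91 at the 366 sites at 500 to under 550 bp.

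The HA control bears on how these shares can be read. In iEV cells, which lack the tag, 77 HA peaks were called from 1 library at a genome background of 0.524 fragments, against 2.24 fragments in the pooled HA list of iSOX2. Of these control summits, 48 of 77 (62.3%, 50.6 to 73.1) lay at iEV RBPJ sites. They reached 38 visited and 10 unvisited sites, 0.19% of all sites, and without them the visited share was 45.8%. Whether a control as deep as the HA-SOX2 list would reach more RBPJ sites was not tested.

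Strong RBPJ sites were visited more often than weak ones, and most clearly away from promoters. The median RBPJ fold was 5.32 at visited and 4.61 at unvisited sites, with medians of 17 and 14 fragments at the summit. By decile of fold, the visited share was 33.2% in the lowest (31.4 to 35.1) and 60.8% in the highest (58.9 to 62.7). Among distal sites, more than 1 kb from any protein-coding transcription start site (TSS), it was 32.0% in the lowest decile and 65.2% in the highest. Among promoter sites, within 1 kb of a TSS, the same deciles had 35.8% and 52.1%. At the 100 strongest sites, 74 were visited, 17 of 31 at promoters and 57 of 69 distal ones.

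**Figure D1:**
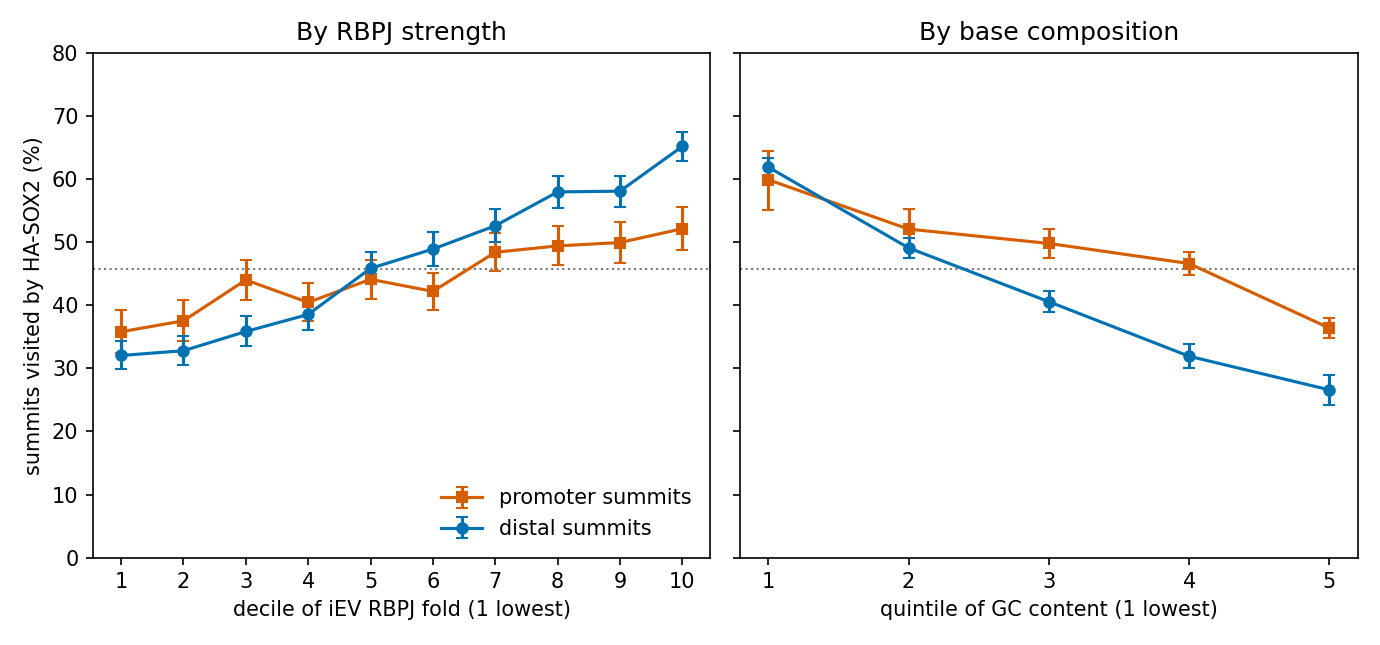
Share of iEV RBPJ sites visited by HA-SOX2 (y axis, %) by decile of iEV RBPJ fold (left) and by quintile of GC content around the summit, with 250 bp on each side (right), for promoter sites (squares) and distal sites (circles). Error bars are exact 95% intervals and the dotted line is the share over all sites, 45.8%. The share climbed with fold more steeply at distal sites, and fell with GC content in both classes.

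Promoter and distal sites were visited to nearly the same degree when taken as a whole. The counts were 4331 of 9732 promoter sites (44.5%, 43.5 to 45.5) and 7237 of 15511 distal sites (46.7%, 45.9 to 47.4), a difference of -2.15 percentage points (-3.41 to -0.892). The sign of this difference depended on what was held equal. By quintile of RBPJ fold it was 4.33 and 4.99 points in the lower quintiles, and -4.22, -6.42 and -10.8 points in the upper ones. By GC content it was -2.00 points in the lowest quintile (-6.83 to 2.67) and 2.98 in the second (-0.500 to 6.44), both within counting error. It was 9.24 (6.38 to 12.1), 14.7 (12.01 to 17.3) and 9.80 points (6.94 to 12.6) in the upper ones. The promoter share was below the distal share on 19 of 23 chromosomes. Chromosomes themselves differed, with visited shares of 35.7% on chromosome 19 and 35.9% on chromosome 17, against 54.2% on chromosome 6 and 55.8% on chromosome 4. The median GC content at the sites was 59.5% and 58.1% on the first pair, and 55.1% on each of the other pair. The part of GC content in these differences was not tested.

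The visited share varied with distance to the TSS. Sites at most 0.1 kb from a TSS were visited in 52.8% (51.0 to 54.7), those at 0.1 to 1 kb in 41.1% (39.95 to 42.3), and those at 1 to 5 kb in 36.7% (35.0 to 38.4), the lowest of the distance bins. The share was 45.0% at 5 to 20 kb, 50.0% at 20 to 50 kb, 53.2% at 50 to 200 kb and 52.4% beyond 200 kb. The same dip lay at 1 to 5 kb in the lowest quintile of RBPJ fold (25.4%), and at 0.1 to 1 kb in the highest (48.9%). Promoter sites upstream of the TSS were visited in 47.9% and those downstream in 41.0%. Distal sites inside exons had the lowest share, 32.0% of 1066 (29.2 to 34.9), against 47.1% in introns and 48.2% in intergenic sequence. At visited promoters the RBPJ summit lay a median of 180 bp from the TSS and was closer to it than the HA summit in 55.4%, while the HA summit was the closer in 44.2%.

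**Figure D2:**
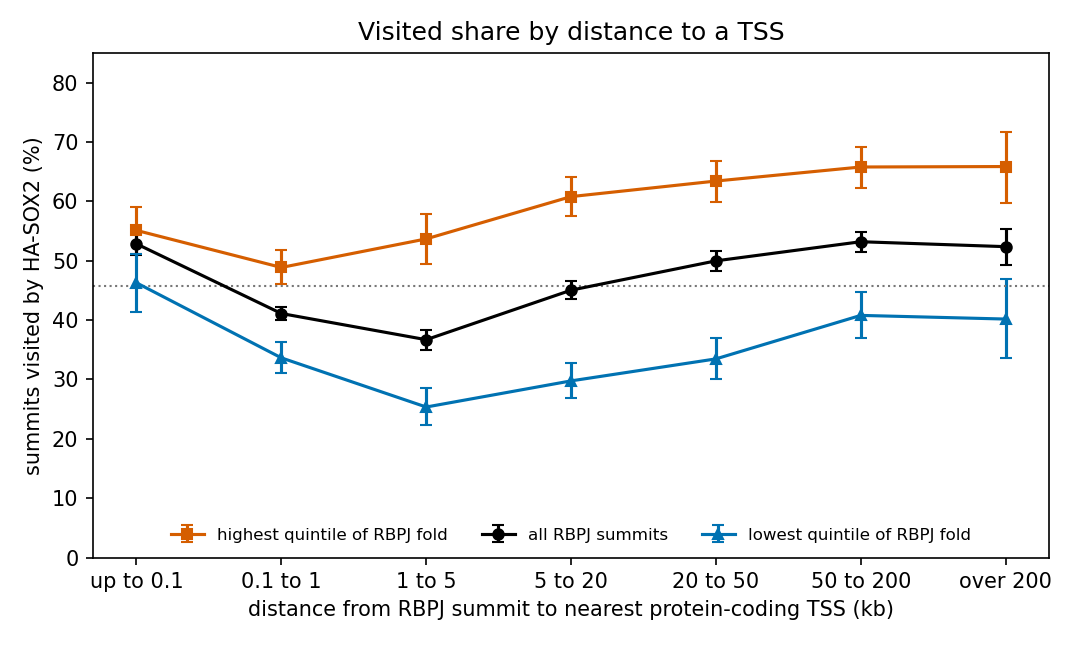
Share of iEV RBPJ sites visited by HA-SOX2 (y axis, %) by distance of the RBPJ summit to the nearest protein-coding TSS (x axis, kb), for all sites and for the highest and lowest quintiles of RBPJ fold. Error bars are exact 95% intervals and the dotted line marks 45.8%. Over all sites the share is 52.8% within 0.1 kb, 36.7% at 1 to 5 kb and above 50% beyond 50 kb.

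HA-SOX2 had a higher fold at visited distal sites than at visited promoters, as it did away from RBPJ sites. The median HA fold was 6.66 at visited distal sites, the 56.3rd percentile of the HA list, and 4.29 at visited promoters, the 24.6th percentile. HA summits away from RBPJ sites had medians of 6.17 at distal places and 4.50 at promoters, and over all places the median was 5.25 at RBPJ sites and 6.10 elsewhere. Seen from the HA list, 4285 of 9404 promoter HA summits (45.6%) lay at a pre-existing RBPJ site, against 7253 of 98799 distal HA summits (7.34%). By decile of HA fold the promoter share was 49.2% in the lowest and 22.8% in the highest, whereas the distal share was 9.27% in the lowest, 5.57% in the fifth and 10.2% in the highest. The 10 visited sites of highest HA fold were all distal. They included sites near SOX21, a SOX family gene (HA fold 177), EPCAM, an epithelial adhesion protein (HA fold 158, RBPJ fold 10.6), CMTM7 (146 and 8.92), LMCD1, a LIM domain protein (133 and 23.6), TGFA, a ligand of the EGF receptor (130 and 6.73), and COL18A1, a collagen (125 and 4.05). The RBPJ folds of these 6 lay between 4.05 and 23.6, against a median of 4.95 over all sites. The summits of CMTM7, LMCD1, TGFA and COL18A1 lay 2 to 51 bp from the HA summit, while those of SOX21 and EPCAM lay 469 and 471 bp from it, near the limit.

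The visited promoter of highest RBPJ fold was that of GTF2H4, a subunit of the general factor TFIIH, at chr6:30907732-30908476 with an RBPJ fold of 100.9 and an HA fold of 3.99 at 21 bp. RPL39, a ribosomal protein (69.2), TCEANC (56.3), GPKOW, an RNA-binding protein of the spliceosome (54.1), and SPRY4, an inhibitor of receptor tyrosine kinase signaling (52.0), followed. SPRY4 had its RBPJ and HA summits at the same base, 20 bp from a TSS (chr5:142324346-142325478), with an HA fold of 8.94. HA fold was under 10 at 9 of the 10 strongest visited promoters, and CPSF4L had 28.9. Visited distal sites of high RBPJ fold lay near IER5, an immediate early gene (81.0, chr1:181117230-181118627, 29.1 kb downstream of the TSS, HA summit 7 bp away), in LEFTY1, an inhibitor of NODAL signaling (73.1), and in CCDC88C, which binds Dishevelled (57.0, summits at the same base). The site near SULT1A4 (66.8) is in a duplicated region, and its place is uncertain. An RBPJ summit was again called in iSOX2 at all of these named sites.

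The strong unvisited sites named next were picked only among unvisited sites that no HA peak overlapped, with no gene repeated within a class. Their lack of an HA peak was thus set by the choice. At promoters, RBBP7, a histone-binding protein (RBPJ fold 56.0), NUCB2 (45.7), HPRT1, an enzyme of purine salvage (42.0), and HES4 (41.5) stood among the 10 strongest without a visit, and the nearest HA summit to HES4 was 23699 bp away. Among distal sites NRARP, a feedback inhibitor of NOTCH (70.1), RHOV, a small GTPase (67.7), and an intronic site of NOTCH1 (35.7) were among the 10 strongest. HA summits lay 6440, 1165 and 1734 bp from these. All 3 were called for RBPJ again in iSOX2, with folds of 53.9, 44.4 and 36.0. In MB157R iEV cells, a SOX2 summit lay less than 500 bp from the NRARP and NOTCH1 sites. No such SOX2 summit was called at the RHOV site or at the promoters of RBBP7, NUCB2, HPRT1 and HES4.

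The NOTCH genes were mixed, and their main sites fell on both sides. Of 28 canonical NOTCH target genes with a site, 21 had at least 1 visited site, and 52 of their 110 sites were visited (47.3%, 37.7 to 57.0), against 44.3% of the 20902 sites given to any gene within 50 kb. The share of genes with a visited site was 58.3% over all genes with a site and 71.2% over those with 2 to 4 sites. The strongest site was visited in 14 of the 28, near the share over all genes, 4967 of 10442 (47.6%). The list was chosen with earlier results of these data known.

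Among effectors of NOTCH, HES1, the best known target repressor, had 5 of 11 sites visited. Its strongest site, 1.23 kb upstream of the TSS (chr3:194134427-194137830), had an RBPJ fold of 49.9 and an HA summit 94 bp away with a fold of 9.79, and a site 5.08 kb upstream (22.5) had HA at 266 bp with a fold of 20.4. HEY1 differed between its sites. The promoter site (38.5) had its nearest HA summit 1100 bp away, while the site 16.4 kb upstream (37.9) had HA at 6 bp with a fold of 20.6. HEY2, with 1 site at its promoter (34.0, HA at 1157 bp), and HEYL, with 3 sites, had none visited. The HEY1 and HEY2 promoter peaks were nonetheless overlapped at an edge by HA peaks of low fold (3.61 and 3.17), and would count as visited if overlap of peaks were asked for. RBPJ at the HEY2 promoter had a fold of 66.8 in iSOX2 and 34.0 in iEV. NRARP had 1 of 8 sites visited, a site 2.94 kb upstream (46.0) with HA at 27 bp, while its strongest site 9.35 kb upstream was not.

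Among receptors and ligands, NOTCH1 had 2 of 8 sites visited, both weak (fold 4.61 each, 8.67 and 12.4 kb upstream). An HA peak with a fold of 9.61 lay near the start of NOTCH1 (chr9:136546177-136547103) and overlapped an unvisited RBPJ peak (fold 8.83), with the summits 1030 bp apart. NOTCH3 had 2 of 5, including its strongest, an intronic site with a fold of 28.1 and HA at 334 bp, and its promoter site was unvisited. The single NOTCH2 site was unvisited. JAG1, a ligand, had 3 of 7 sites visited, one of them at its promoter with HA at 141 bp (RBPJ fold 6.50, HA fold 10.5). RBPJ itself had its strong sites visited, the promoter site (33.3, HA at 271 bp) and an intronic site (28.8, HA at 38 bp). Over the 29 genes of the receptor, ligand and modulator list with a site, 41 of 91 sites were visited (45.1%, 34.6 to 55.8).

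Growth and identity genes also carried visits. CCND1, a G1 cyclin, had 2 of 5 sites visited, its promoter among them but not its strongest site (23.04, HA at 777 bp, overlapped by an HA peak), and MYC, a growth regulator, 6 of 14. The MYC promoter site (12.0) had HA at 65 bp, and the site 28.2 kb upstream (15.7) had HA at 12 bp with a fold of 31.6. CDKN2B, a CDK inhibitor, had a visited promoter site (37.7, HA at 248 bp). CDH1, the epithelial cadherin, had 5 of 7 sites visited, SPRY1 2 of 2, and VIM, an intermediate filament protein of mesenchymal cells, and SNAI2, an EMT repressor, their single sites. CDH2, the mesenchymal cadherin, had 1 of 3 sites visited and its strongest was not, and 5 of 17 EMT and mesenchymal genes with a site had none visited (LOX, SNAI1, TGFBR2, ZEB1 and ZEB2, named after their values were seen). ITGA3, a laminin-binding integrin, had none of 3. SOX9, a progenitor factor, had 5 of 11 sites visited. SOX2 had 1 of 2, upstream of the gene, and its other site lay in the exon, where reads from the gene and from the induced vector cannot be told apart. IER5 had 7 of 11 sites visited. Of the 30 genes named in all, 25 had a site and 20 a visited one, and DTX1, ITGA6, TP63, KLF5 and FOSL1 had no site. Over all genes with a site, 58.3% had a visited one. That share was 45.1% for genes with 1 site, 93.8% with 5 to 9 sites and 97.0% with 10 or more.

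Over the genome, 10442 of 19962 protein-coding genes had at least 1 site within 50 kb, and 6092 of these (58.3%, 57.4 to 59.3) had at least 1 visited. All sites were visited in 3289 genes, none in 4350, and 2803 had both kinds. Of 7875 genes with a promoter site, 3938 had a visited one. The genes with most visited sites included FRMD4A, a scaffold of cell polarity (13 of 18), BCAR3, an adaptor of SRC family signaling (11 of 14, with 6 of 6 at promoters), and EPB41L4B (11 of 14). NFIX, a transcription factor, had 11 of 21, and EPHB3, an ephrin receptor, 10 of 14. Those with most sites and none visited included RBFOX3, a neuronal splicing regulator (12), ACTG1, a cytoplasmic actin (10), and GAS6, a ligand of TAM receptors, PIEZO1, a mechanosensitive channel, and PTP4A3, a phosphatase (9 each). The highest RBPJ fold of any site of these genes was 10.8, at PIEZO1.

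Gene lists spread around the share of 44.3%. Of 20 lists, 15 lay above it and all but those of epithelial junctions and the TEAD and YAP pathway had intervals that included it. The share was 59.1% for epithelial junction genes (55 of 93 sites, 48.5 to 69.2) and 59.0% for the TEAD and YAP pathway (36 of 61, 45.7 to 71.4). Of 16 TEAD and YAP genes with a site, 15 had a visited one, beside 58.3% of all genes with a site. These 16 genes held 61 sites, and the gene share rises with the number of sites. Over all genes it was 45.1% with 1 site, 71.2% with 2 to 4 and 93.8% with 5 to 9. Src family and dasatinib target kinases had 24 of 40 sites visited (interval 43.3 to 75.1%), and genes of receptor tyrosine kinase feedback 60.6% (20 of 33, 42.1 to 77.1), with 13 of 16 promoter sites visited. Over all sites, 44.5% of promoter and 46.7% of distal ones were visited. Cytosolic ribosomal protein genes had 29 of 43 promoter sites visited (67.4%) and 10 of 33 distal ones (30.3%), and nuclear oxidative phosphorylation genes 13 of 18 and 4 of 10. EMT and mesenchymal genes had 53.8% (37.2 to 69.9), luminal mammary genes 49.3% and basal mammary genes 48.1%. SOX family genes had 46.8%, stem cell and pluripotency genes 48.7%, CDK inhibitors 50.0%, immediate early genes 42.2%, cell cycle genes 40.9% and AP-1 family genes 39.1%. Marker genes of other cell types had few RBPJ sites, 9 for liver, 7 for blood cells and 8 for skeletal muscle, of which 5, 3 and 3 were visited.

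**Figure D3:**
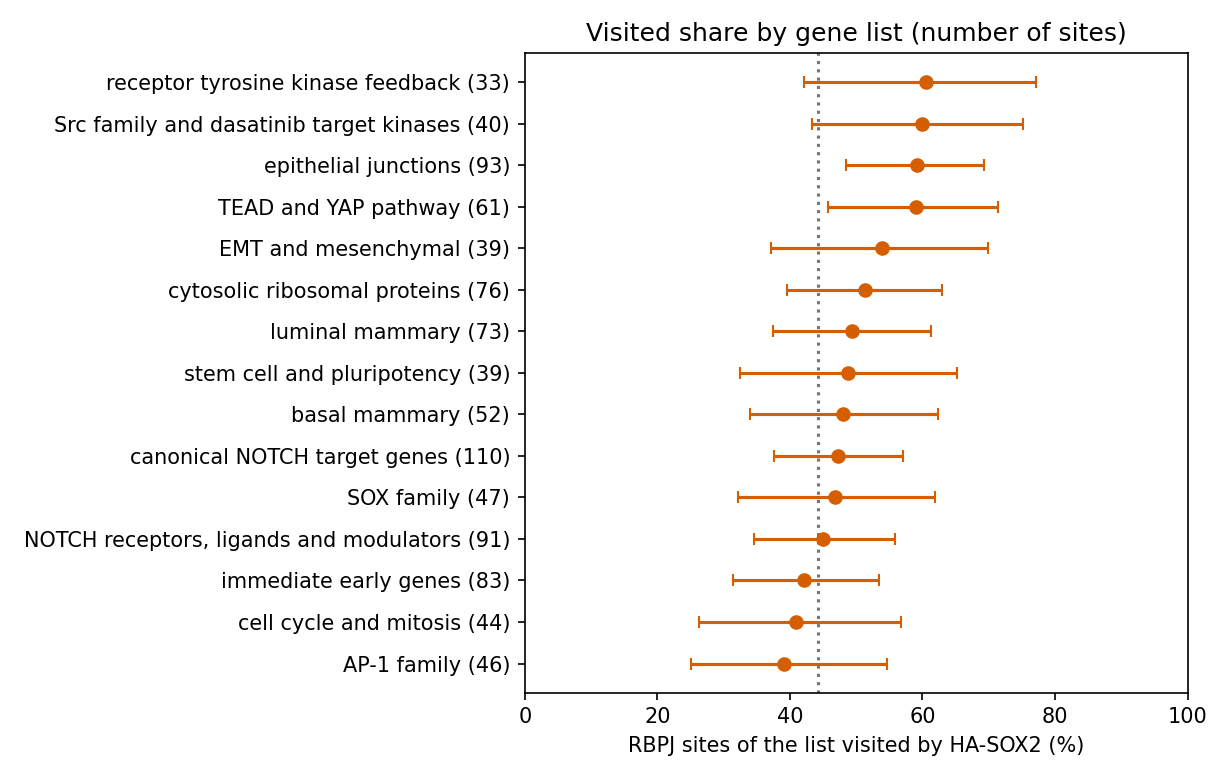
Share of the RBPJ sites of each gene list that were visited by HA-SOX2 (x axis, %), for the lists with at least 30 sites, with exact 95% intervals. The number of sites is in parentheses and the dotted line marks 44.3%, the share over all sites given to a gene. The intervals of epithelial junctions and of the TEAD and YAP pathway lie above the line.

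Visited sites kept a called RBPJ peak in iSOX2 more often than unvisited sites. Over all sites 68.5% had an iSOX2 RBPJ summit less than 500 bp away, with 9335 of 11568 visited sites (80.7%, 79.97 to 81.4) and 7962 of 13675 unvisited sites (58.2%, 57.4 to 59.1), a difference of 22.5 percentage points (21.4 to 23.6). The difference was 12.8 points at promoters (84.8% and 72.0%) and 29.0 points at distal sites (78.3% and 49.2%). It held in each quintile of RBPJ fold and shrank in the highest, where it was 2.66 points at promoters (0.523 to 4.86) and 10.1 points at distal sites (7.90 to 12.3). The iSOX2 RBPJ list was the deeper of the pair, with a background of 2.04 fragments against 1.60 in iEV, and RBPJ and HA in iSOX2 came from the same cells and shared their inputs. Among sites where RBPJ was called in both, fold went either way. The median log2 ratio of iSOX2 over iEV was 0.06 at visited and 0.03 at unvisited promoters, and -0.11 at visited (quartiles -0.44 and 0.23) and -0.13 at unvisited distal sites (quartiles -0.44 and 0.19). Fold was lower in iSOX2 at 59.0% of these visited and 60.2% of these unvisited distal sites.

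**Figure D4:**
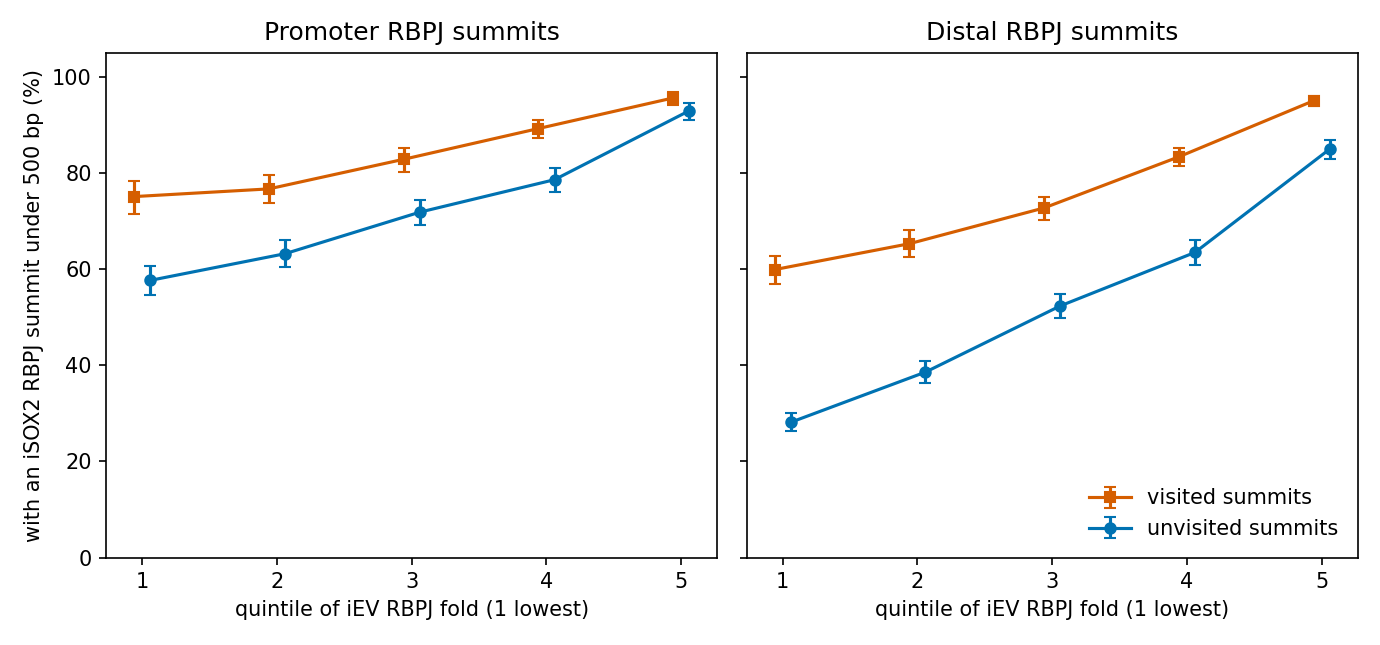
Share of iEV RBPJ sites with an RBPJ summit called again in MB157 iSOX2 (y axis, %) by quintile of iEV RBPJ fold (x axis), for visited sites (squares) and unvisited sites (circles) at promoters (left) and distal sites (right). Error bars are exact 95% intervals. The visited sites lie above the unvisited ones in every quintile, with the largest gap, 31.8 points, at the weakest distal sites and the smallest, 2.66 points, at the strongest promoters.

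HA-SOX2 was found less often at RBPJ sites that were called only in iSOX2 than at those also present in iEV. Among iSOX2 RBPJ summits with an iEV summit in range, HA lay near 48.6% of promoter and 58.5% of distal summits. Among those without one, it lay near 31.7% and 43.9%. HA-SOX2 of MB157 cells lay near 36.1% of promoter and 23.8% of distal RBPJ summits of MB157R iEV, against 44.5% and 46.7% of the MB157 iEV sites. RBPJ fold and the depth of the lists were not held equal in these comparisons, and their part was not tested.

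SOX2 of MB157R cells without an induced factor lay more often at visited sites. An MB157R iEV SOX2 summit lay near 22.6% of all sites, with 35.7% of visited (34.8 to 36.6) and 11.6% of unvisited sites (11.03 to 12.1), a difference of 24.1 points (23.1 to 25.2). The shares were 41.1% and 14.6% at promoters, and 32.5% and 9.57% at distal sites. In the lowest quintile of RBPJ fold they were 30.4% and 8.92%, and in the highest 39.1% and 15.2%. MB157R iEV RBPJ reached 48.6% of all sites, 53.5% of visited and 44.4% of unvisited, but in the highest quintile of fold the shares were 59.6% and 61.6%, a difference of -1.96 points (-4.67 to 0.777). After induction of N1-ICD in MB157R, RBPJ was near 44.2% of the sites, 49.6% of visited and 39.6% of unvisited. SOX2 was then near 0.357%, with 78 visited and 12 unvisited sites, in a list of 323 summits.

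Sequence words differed in frequency between visited and unvisited sites. In windows with 100 bp on each side of the RBPJ summit, 17.1% of visited and 7.46% of unvisited sites held any of the 3 SOX words on either strand, a difference of 9.67 points (8.85 to 10.5), and 11.9% of all such windows did. The shares were 9.28% and 4.55% at promoters, and 21.8% and 9.35% at distal sites. In flanking windows 1 kb away they were 15.1% and 13.0% over all sites. Promoter flanks had 14.4% and 12.1%, more than the promoter summit windows of either kind. Distal flanks had 15.5% and 13.5%, less than visited and more than unvisited distal summit windows. Put the other way, 66.0% of the 3001 sites with a SOX word were visited, against 43.1% of those without. Visited sites were poorer in GC, with a median of 54.7% against 58.7% at unvisited sites. The reversed control TAACAA was found at 5.80% of visited and 3.85% of unvisited sites. It shares the bases AACAA with AACAAT and AACAAAG and can overlap them, as at LMCD1 and COL18A1, so it is not independent of the SOX words. Within quintiles of GC content the sites with a SOX word were still visited more often, by 11.9 to 24.3 points. For TAACAA the same differences were 4.26, 2.35, -1.79, 8.23 and 9.48 points from the lowest to the highest quintile, each with an interval that included 0, and within quintiles of RBPJ fold, where GC content was not held equal, they were 7.28 to 14.8 points.

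The long RBPJ word went the other way. GTGGGAA was held by 13.6% of visited and 18.5% of unvisited windows (16.3% of all, and 3.81% and 4.31% of the flanks), a difference of -4.85 points (-5.75 to -3.94). Of the 4106 sites with GTGGGAA, 38.4% were visited (36.9 to 39.9), against 47.3% of the sites without it, although such sites were frequent among strong RBPJ peaks. The gap was present in each quintile of RBPJ fold, from -16.8 to -9.82 points, and in each quintile of GC content, from -15.4 to -4.60 points. Split further by place, its interval included 0 in 4 promoter strata, the 2 lowest quintiles of fold (-5.52 points, -13.7 to 3.79, and -4.98 points, -13.0 to 3.68) and the lowest and second-highest quintiles of GC content (-11.9 points, -24.0 to 0.308, and -0.908 points, -6.21 to 4.47), and in 1 distal stratum, the highest quintile of GC content (-2.30 points, -8.32 to 4.52). In the highest decile of fold, 51.7% of 989 sites with GTGGGAA were visited (48.5 to 54.8), against 66.7% of the others. Other bases before the core did not show this gap, as 45.3% of sites with CTGGGAA, 45.5% with ATGGGAA and 49.6% with TTGGGAA were visited, a comparison chosen after the windows had been seen. The control AAGGGT was at 7.75% of visited and 8.30% of unvisited sites.

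**Figure D5:**
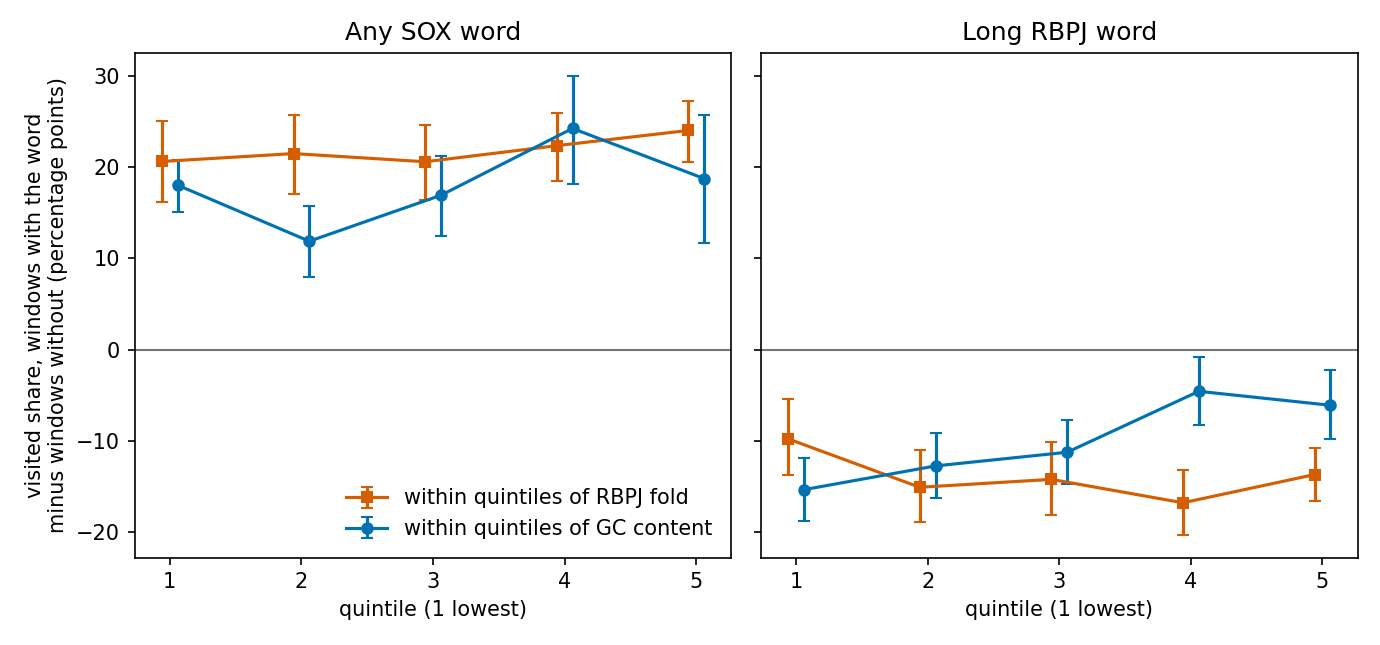
Visited share of sites whose window (100 bp on each side) holds the word minus that of sites without it (y axis, percentage points), for any SOX word (left) and for the long RBPJ word (right), within quintiles of RBPJ fold (squares) and of GC content (circles). Error bars are 95% Newcombe intervals. Every point is above 0 for SOX words and below 0 for the long RBPJ word.

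Among the other words, AP-1 (TGAGTCA) was at 5.96% of visited and 3.71% of unvisited sites (4.74% of all), against 2.13% and 1.89% for the reversed control ACTGAGT. Of sites with AP-1, 57.6% were visited, against 45.2% of those without. Within quintiles of GC content this difference was 12.3, 10.6, 0.585, 5.09 and 12.3 points from the lowest to the highest. Its interval included 0 in the third (-5.49 to 6.81) and the fourth (-2.75 to 13.2). The words that follow were not compared within these quintiles. TEAD (GGAATG) was at 20.3% and 15.2% of distal sites (17.6% of all distal sites), but at 9.21% and 10.2% of promoters. ETS (CCGGAAG) showed the reverse, with 8.43% and 6.17% at promoters (7.17% of all promoter sites), and 1.89% and 1.96% at distal sites. RUNX (TGTGGT) was at 17.2% and 13.2% of distal sites (15.1% of all). The octamer word TGCAAAT, bound by POU factors, was at 2.10% and 1.95% of all sites, and NRF1 (CATGCGC) at 1.97% and 2.22%, with intervals of both differences that included 0. A match of letters is a description and not a bound site.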

How the data were processed

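ChIP-seq peak lists of MB157 and MB157R cells were taken as deposited. Per the labels and methods, the authors used BWA for alignment to hg38 and MACS2 for narrow peaks, pooling the libraries of each group and using inputs as background. The deposited files hold positions in bp, a score (-log10 q times 10), the fold enrichment at the summit as a ratio over input, and −log10 p and −log10 q values from MACS2 by the authors. Chromosomes 1 to 22 and X were kept. Summits were paired at under 500 bp. Promoters (within 1 kb of a protein-coding TSS) and nearest genes (within 50 kb) came from GENCODE 44. Fragments at a summit were recovered from fold and p, for 99.9% of RBPJ and 98.7% of HA-SOX2 peaks. Words were counted on both strands of hg38, with 100 bp on each side of a summit.

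Named sites are the 10 strongest of each class (visited or unvisited, promoter or distal), the 10 visited sites of highest HA fold, the 10 genes with most visited sites and the 10 with most sites and none visited, and 30 listed genes, from which the text gives a selection, and some are not reported here. Members, lists and tests were chosen with earlier results of these data known, and the printed windows with their values known. Python 3.11.15, pandas 2.3.3, scipy 1.17.1, statsmodels 0.14.6 and pysam 0.24.0 were used, and the counting was tested on simulated summits. Other distances, peak thresholds and promoter and gene limits were tried.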

Additional observations from a re-analysis of the deposited data

How the results depend on the processing

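The visited share of 45.8% was 19.7% at 100 bp, 35.1% at 250 bp, 55.8% at 1000 bp and 52.6% for overlapping peaks. It was 34.3% with HA peaks of −log10 q of at least 5, 10.4% with the HA list shortened to the length of the RBPJ list, and 54.0% with RBPJ peaks of −log10 q of at least 5. The difference of promoter minus distal sites (-2.15 points) was -6.74 at 100 bp and at 250 bp, -0.322 for overlapping peaks, -10.2 and -12.5 with the stricter and the shortened HA lists, -7.55 with the stricter RBPJ list and -6.74 with promoters within 5 kb. It turned to 1.91 at 1000 bp, 5.93 with promoters within 0.25 kb and 6.94 as the mean within GC quintiles, so that its sign rests on these choices. The cause was not tested. The difference in RBPJ called again (22.5 points) was 16.9 at 100 bp, 19.9 at 250 bp, 20.5 at 1000 bp, 20.7 with stricter HA peaks and 12.8 with stricter RBPJ peaks. That for MB157R SOX2 (24.1 points) was 16.1, 20.6 and 22.6 at these distances, 25.7 with stricter HA peaks and 21.8 with the shortened list. SOX words (9.67 points) gave 5.25 and GTGGGAA (-4.85 points) -3.31 with 50 bp on each side. The median HA fold at RBPJ sites (5.25) was 5.88 at 100 bp, and genes with a visited site (58.3%) were 53.6% within 10 kb and 60.1% within 200 kb. Alternatives chosen after seeing the data included leaving out unvisited sites overlapped by an HA peak, which gave 49.7% visited, 24.4 points for RBPJ and 26.1 for SOX2. Means within GC quintiles gave 25.6 points for RBPJ, 7.004 for SOX words and -5.90 for GTGGGAA, and within fold quintiles 17.6 for RBPJ and -7.57 for GTGGGAA. The GTGGGAA alternatives and the GC and fold means were also chosen after seeing the data. Of 20 gene lists, 15 lay above the share over all genes, and 13 of the 19 lists with a promoter site lay above the share over promoter sites. No paired analysis was possible because the peaks were called on pooled libraries, so no replicate has values of its own, and no library could be left out. Depth limits weak sites, since a median RBPJ site rests on 15 fragments, and an unvisited site is one without a called HA summit.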
